A study of Bos taurus with 6 samples.

Results

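The circadian clock genes described here were 10 named genes of the molecular clock, found in the table by symbol and chosen with earlier results of these data known. CLOCK encodes the activator, PER1, PER2, PER3, CRY1 and CRY2 encode the repressor arm, NR1D1 and NR1D2 encode the REV-ERB nuclear receptors, and DBP and TEF encode output factors of the PAR bZIP family. All 10 were found among the 23475 genes of the deposited table, each listed by the prefix "gene-" and its symbol. All 10 also passed the filter of a mean of at least 0.5 FPKM (sequenced fragments scaled by transcript length and by the total mapped in a library) over the 6 libraries, as did 12422 genes in total.

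The clock is a feedback loop of transcription with a period of about a day. CLOCK pairs with BMAL1, the product of ARNTL, and the pair binds E-box elements and activates the PER and CRY genes, the REV-ERB genes and the PAR bZIP genes. PER and CRY proteins return to the nucleus and block CLOCK and BMAL1, while the REV-ERB proteins repress ARNTL and are opposed there by RORA. The PAR bZIP factors activate genes through D-box elements, which NFIL3 represses. Fat cells and their precursors carry a working clock, and in cultured cells it runs out of step from cell to cell unless serum, glucocorticoid or another signal sets it.

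RNA was sequenced from bovine (Bos taurus) preadipocytes, the precursors of fat cells, which had been isolated from the subcutaneous fat of 3 premature calves and grown in high glucose DMEM with fetal bovine serum and antibiotics. In 1 group of 3 libraries the cells received the bta-miR-484 agomir, a chemically modified double-stranded RNA that acts as the miRNA, and in the other group of 3 libraries they received agomir NC, the negative control of the same chemistry. The table lists no gene of miR-484, so the level of the miRNA cannot be read from these values. RNA was taken at a single time, 48 h after transfection, so a shifted phase, a changed amplitude and a changed mean level of a rhythmic gene cannot be told apart. It is not stated whether the libraries of a group stand for separate animals or for parallel cultures, so each p-value measures only the spread between these samples, which may be technical.

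The samples are labelled adipocyte, and their marker genes were mostly those of a list of preadipocytes and fibroblasts, which does not tell these cell types apart. The 12 markers of this list, called the precursor list below, summed to 23870 ± 530 FPKM (SD, n = 3) with the agomir and 23895 ± 597 FPKM (SD, n = 3) with agomir NC. The collagen genes COL3A1, COL1A1 and COL1A2 led, at means of 7623, 5979 and 5721 FPKM, while DLK1 was listed at 0. The 10 listed markers of mature adipocytes summed to 13.7 ± 0.698 and 13.4 ± 0.876 FPKM (SD, n = 3 each), led by LPL at 3.73 FPKM, and the secreted fat cell product ADIPOQ was at 0.140 FPKM. Several defining markers of other cell types were near 0, with the endothelial gene PECAM1 at 0.0970 FPKM, the leukocyte gene PTPRC at 0.0573 FPKM and the epithelial gene EPCAM at 0.157 FPKM. The skeletal muscle genes MYOD1 and MYOG were listed at 0. Summed levels of the endothelial list (means of 4.15 and 4.27 FPKM for agomir and agomir NC, led by VWF at 3.39 FPKM), the macrophage and leukocyte list (7.79 and 7.88 FPKM, led by CD14 at 6.27 FPKM), the skeletal muscle list (0.298 and 0.296 FPKM) and the smooth muscle and pericyte list (47.4 and 46.0 FPKM, led by ACTG2 at 41.2 FPKM) overlapped between the groups, as did those of the precursor and adipocyte lists. The epithelial sum, near 0, was lower in every agomir library, at 0.145, 0.169 and 0.221 FPKM beside 0.311, 0.239 and 0.379 FPKM. Of the adipocyte markers, PPARG was higher with the agomir (3.86 ± 0.157 beside 3.23 ± 0.237 FPKM, SD, n = 3 each) and FABP4 lower (1.90 ± 0.400 beside 2.89 ± 0.679 FPKM, SD, n = 3 each) at an unadjusted p under 0.05, although FABP4 overlapped between the groups. Of the 11 precursor markers tested, 0 were higher with the agomir at an unadjusted p under 0.05 in limma, beside 6.63% of all genes. At that threshold 2 were lower, beside 4.31% of all genes, the mesenchymal surface enzyme NT5E and the matrix proteoglycan DCN. Without passing it, ZNF423, a transcription factor of preadipocytes, was higher in every agomir library (means of 5.98 and 5.33 FPKM), beside 10.9% of all genes. ENG, of the same list, was lower in every agomir library (means of 53.97 and 57.01 FPKM), beside 6.36% of all genes, also without passing. NT5E was at 73.2 ± 3.73 FPKM against 87.2 ± 3.56 FPKM with agomir NC (SD, n = 3 each), and DCN was at 2863 ± 31.3 FPKM against 3114 ± 129 FPKM (SD, n = 3 each). The adjusted p-values from limma were 0.407 (PPARG), 0.363 (FABP4), 0.209 (NT5E) and 0.376 (DCN). The unadjusted p stayed under 0.05 in 12 (PPARG), 14 (FABP4), 16 (NT5E) and 11 (DCN) of the 16 alternative settings. The part of these markers in the results on clock genes was not tested.

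Across the clock genes, differences between agomir and agomir NC were small and mostly leaned towards higher values with the agomir. Of the 10 genes, 9 had a positive log2 fold change of agomir over agomir NC, taken on log2(FPKM + 0.5), compared with 55.1% of the 12422 genes tested, and DBP was the exception. In the other lists described below, the positive share ran from 60.0% (other clock factors) to 76.9% (glucocorticoid and cAMP input). The clock genes share a feedback loop, so their directions are not independent, and nothing particular to them is read from the count. The median log2 fold change was 0.085 over the clock genes and 0.013 over all genes tested. The highest ratios of the agomir mean to the agomir NC mean in FPKM were 1.16 for TEF, 1.12 for PER2, 1.12 for NR1D2 and 1.11 for NR1D1. In bulk RNA, fewer cells that express a gene and less of its RNA per cell cannot be told apart.

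At an adjusted p under 0.05 in limma's moderated test, 0 of the 10 clock genes passed, beside 1 of the 12422 genes tested (0.00805%), and the adjusted p-values of the clock genes ranged from 0.399 to 0.899. At an unadjusted p under 0.05, 2 of the 10 were higher with the agomir, NR1D2 and TEF, beside 824 of all genes (6.63%), and 0 were lower, beside 535 of all genes (4.31%). Without agomir replicate 2, the library with the highest NR1D2 and TEF, 0 of the 10 were higher at that threshold. All 3 agomir libraries lay above all 3 agomir NC libraries for 3 of the 10, PER2, NR1D2 and TEF, beside 1351 of all genes (10.9%), and 0 of the 10 were separated in the lower direction, beside 790 of all genes (6.36%). The counts in the higher direction were above the shares over all genes but rest on 2 and 3 genes, so nothing particular to the clock genes is read from them. The 95% confidence intervals of the 10 log2 fold changes lay between -0.49 and 0.40, so that none reached a 1.5-fold difference (0.58 on the log2 scale) in either direction.

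The lean towards higher values was shared in part by the whole table. Of the 1359 genes at an unadjusted p under 0.05, 60.6% were higher with the agomir, and after median-ratio scaling of the libraries the split was 657 higher and 706 lower, or 48.2% higher. With that scaling 9 of the 10 clock genes were still positive, their median was 0.071 and that of all genes was -0.0020, and PER2 no longer separated the groups. Median log2 fold changes also differed with the length of the gene on the chromosome, at -0.012 among the shortest, 0.013 among the middle and 0.036 among the longest of 3 equal classes of 11471 genes with a known span. NR1D1 and DBP belonged to the shortest class, CLOCK, PER3 and CRY1 to the longest, and the other 5 clock genes to the middle. With the trend on span removed, an alternative chosen after the data were seen, the median over the clock genes was 0.060 and that over all genes was -0.0028. PER2 then overlapped between the groups and NR1D1 did not.

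**Figure D1:**
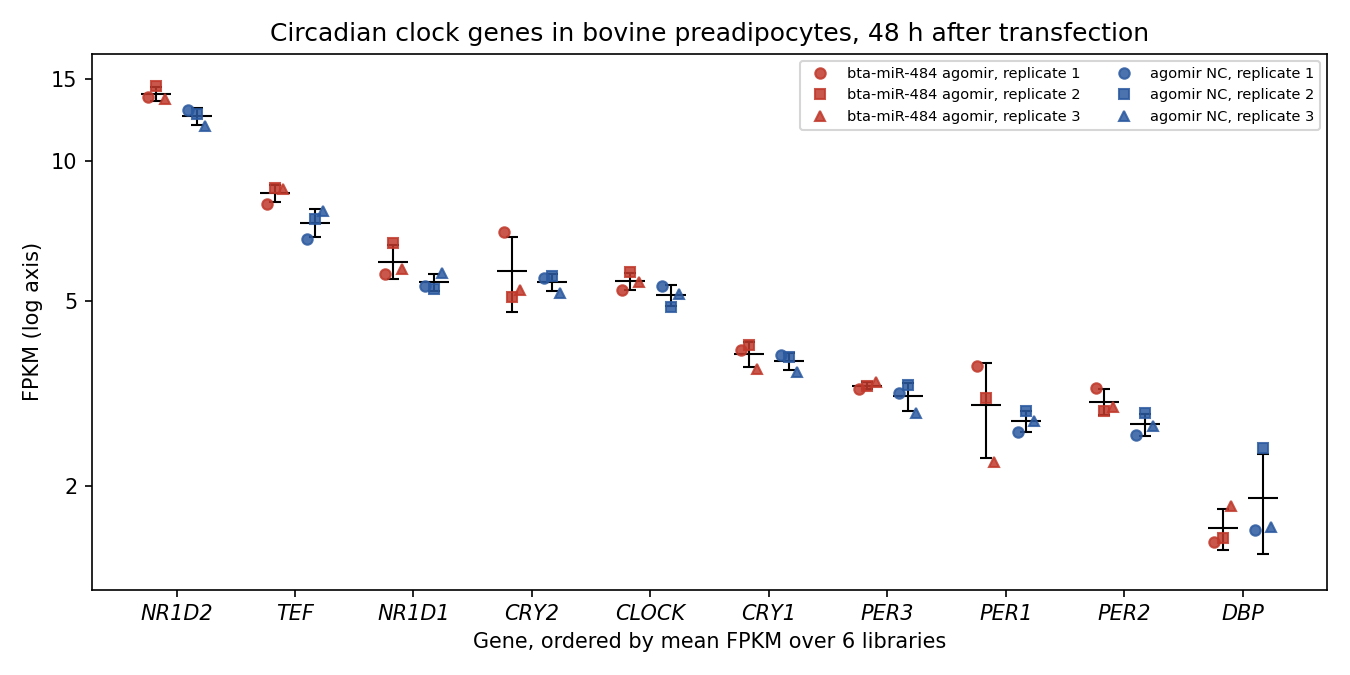
Level of each clock gene in FPKM (log axis) in the 3 agomir and 3 agomir NC libraries, ordered by the mean over 6 libraries, with points for single libraries and horizontal lines and bars for the group mean ± SD. All agomir points lie above all agomir NC points for NR1D2, TEF and, by a narrow margin that is lost after median-ratio scaling or with the trend on span removed, PER2.

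FPKM is a level per transcript length, so the clock genes can be ranked against each other. NR1D2 was the highest, at a mean of 13.2 FPKM over the 6 libraries, followed by TEF at 7.96 FPKM, and each exceeded the next gene in 6 of 6 libraries. NR1D1 (5.79 FPKM), CRY2 (5.65 FPKM) and CLOCK (5.33 FPKM) formed a middle tier in which the place of CRY2 was not settled. NR1D1 exceeded CLOCK in 6 of 6 libraries, but it exceeded CRY2 in 3 of 6, and CRY2 exceeded CLOCK in 4 of 6. CRY1 (3.78 FPKM) was below CLOCK in all 6 libraries, and PER3 (3.21 FPKM), PER1 (2.88 FPKM) and PER2 (2.88 FPKM) followed, of which PER1 and PER2 had almost the same mean. DBP was the lowest, at 1.76 FPKM, under PER2 in 6 of 6 libraries. Among the 12422 genes tested, the clock genes spanned from the 15.4th percentile of mean level (DBP) to the 63.9th (NR1D2), so most were of low to moderate abundance.

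CLOCK, the DNA-binding partner of BMAL1, was at 5.28, 5.77 and 5.50 FPKM in agomir replicates 1, 2 and 3 and at 5.38, 4.87 and 5.19 FPKM in agomir NC replicates 1, 2 and 3. The groups overlapped, because agomir NC replicate 1 was above agomir replicate 1. The log2 fold change was 0.09 (standard error 0.078, 95% confidence interval -0.083 to 0.27), with an adjusted p of 0.708 from limma, and was 0.056 without agomir NC replicate 2. BMAL1 itself, encoded by ARNTL, had levels of 5.21, 6.23 and 4.83 FPKM under the agomir, compared with 6.05, 5.94 and 5.44 FPKM under agomir NC. Its groups overlapped as well, with both the highest and the lowest value in agomir libraries, and limma gave a log2 fold change of -0.10 with a standard error of 0.099 and an adjusted p of 0.766. That estimate ranged from -0.19 without agomir replicate 2 to -0.024 without agomir replicate 3.

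The PER genes encode the repressors whose degradation times the cycle, and PER1 and PER2 also respond directly to cAMP and glucocorticoid signals. PER1 stood at 3.63, 3.09 and 2.25 FPKM in agomir libraries, while agomir NC libraries held 2.62, 2.91 and 2.77 FPKM. Agomir replicates 1 and 3 were the highest and the lowest of all 6 libraries, and the spread of PER1 within groups was at the 88.7th percentile of all genes tested. PER2 stood at 3.26, 2.90 and 2.96 FPKM against 2.58, 2.88 and 2.70 FPKM, so that every agomir library was above every agomir NC library, but agomir replicate 2 exceeded agomir NC replicate 2 only in the second decimal. PER3, the family member least needed for the rhythm, had nearly constant levels of 3.23, 3.29 and 3.35 FPKM with the agomir. With agomir NC it was at 3.18, 3.30 and 2.88 FPKM, and the groups overlapped. The log2 fold changes were 0.08 (standard error 0.14) for PER1, 0.14 (standard error 0.095) for PER2 and 0.07 (standard error 0.090) for PER3, with adjusted p-values from limma of 0.885, 0.637 and 0.827. The estimate for PER3 was 0.019 without agomir NC replicate 3, its lowest library, and 0.10 without agomir NC replicate 2. The exact permutation p of PER2 was 0.1, the smallest that 3 libraries against 3 allow. Summed over the family, PER levels were 9.32 ± 0.783 FPKM with the agomir and 8.61 ± 0.419 FPKM with agomir NC (SD, n = 3 each), and each PER gene held between 26.3% and 39.1% of the sum in every library.

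Cryptochromes are the partners that carry most of the repression of CLOCK and BMAL1. CRY1 was at 3.94, 4.03 and 3.57 FPKM in agomir replicates and 3.82, 3.79 and 3.53 FPKM in agomir NC replicates, and in both groups replicate 3 was the lowest. CRY2 was at 7.03, 5.10 and 5.29 FPKM under the agomir, compared with 5.61, 5.66 and 5.22 FPKM under agomir NC. Agomir replicate 1 was far above the other libraries for CRY2, while agomir replicate 2 was the lowest of the 6. Both cryptochromes overlapped between the groups, with log2 fold changes of 0.04 (standard error 0.087) for CRY1 and 0.06 (standard error 0.11) for CRY2 and adjusted p-values from limma of 0.899 and 0.888. With a library left out, the estimate for CRY1 ranged from 0.011 (without agomir NC replicate 3) to 0.089 (without agomir replicate 3), and it was 0.0035 with the trend on span removed. The direction of PER1 and CRY2 depended on agomir replicate 1, their highest library, without which the log2 fold change was -0.053 for PER1 and -0.073 for CRY2 and 7 of the 10 clock genes were positive. The share of CRY2 in the summed cryptochrome level ranged from 59.4% to 59.8% in the agomir NC libraries and from 55.9% to 64.1% in the agomir libraries.

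REV-ERB receptors bind heme and repress ARNTL, and in precursors of fat cells REV-ERB alpha is known to take part in adipogenesis. NR1D2, which encodes REV-ERB beta, was at 13.8, 14.5 and 13.6 FPKM in agomir libraries, while agomir NC libraries held 12.9, 12.6 and 11.9 FPKM. Every agomir library was above every agomir NC library, and the highest value was in agomir replicate 2. Group means were 13.9 ± 0.469 FPKM and, for agomir NC, 12.5 ± 0.506 FPKM (SD, n = 3 each). On the log2 scale the difference was 0.15 (standard error 0.060, 95% confidence interval 0.020 to 0.29), with an unadjusted p of 0.0285 and an adjusted p of 0.402 from limma. The former was above 0.05 after quantile normalization (0.0662), without agomir replicate 2 (0.0935) and without agomir NC replicate 3 (0.0904), and adjusted values lay between 0.387 and 0.667 in the 16 alternatives.

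NR1D1, which encodes REV-ERB alpha, was at 5.73, 6.67 and 5.85 FPKM in agomir replicates and 5.40, 5.32 and 5.76 FPKM in agomir NC replicates. The groups overlapped only through agomir NC replicate 3, which was just above agomir replicate 1. Its log2 fold change was 0.13 (standard error 0.083), with an adjusted p of 0.601 from limma, and was 0.072 without agomir replicate 2. The summed level of both receptors was 19.5, 21.1 and 19.4 FPKM under the agomir, compared with 18.3, 17.9 and 17.7 FPKM under agomir NC. Every agomir sum was above every agomir NC sum, but NR1D2 made up a mean of 69.6% (agomir) and 69.4% (agomir NC) of it, so the sum is not evidence separate from NR1D2. NR1D1 overlaps THRA, the gene of thyroid hormone receptor alpha, in the RefSeq gene table, and whether the libraries kept the strand of the RNA is not stated. THRA was at 6.49 ± 0.184 FPKM under the agomir, beside 7.27 ± 0.189 FPKM with agomir NC (SD, n = 3 each). THRA was lower in every agomir library, beside 6.36% of all genes, with a log2 fold change of -0.15 (standard error 0.068) and an adjusted p of 0.460 from limma. Its unadjusted p was 0.0513, and it was under 0.05 in 6 of the 16 alternatives. The part of shared sequence in the NR1D1 values was not tested.

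PAR bZIP factors turn the rhythm of the core loop into output through D-box elements. TEF was at 8.11, 8.75 and 8.73 FPKM under the agomir, compared with 6.81, 7.52 and 7.81 FPKM under agomir NC. Each agomir value was above each agomir NC value, and the gap between agomir replicate 1 and agomir NC replicate 3 was smaller than the spread within the agomir NC group. Group means were 8.53 ± 0.367 FPKM and, for agomir NC, 7.38 ± 0.514 FPKM (SD, n = 3 each). The log2 fold change, the highest of the clock genes, was 0.20 (standard error 0.075, 95% confidence interval 0.029 to 0.37). Its unadjusted p was 0.0260 and its adjusted p was 0.399 from limma. The unadjusted p was above 0.05 without agomir replicate 2 (0.0718), agomir replicate 3 (0.0761) or agomir NC replicate 1 (0.0972), and adjusted values lay between 0.379 and 0.623 in the 16 alternatives.

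DBP, a PAR bZIP factor that usually has one of the widest daily swings among clock outputs, was the only clock gene with a negative estimate. It was at 1.52, 1.55 and 1.81 FPKM in agomir libraries, while agomir NC libraries held 1.62, 2.42 and 1.64 FPKM. A single library, agomir NC replicate 2, was far above the other 5, and the remaining values overlapped. Limma gave a log2 fold change of -0.16 with a standard error of 0.15 and an adjusted p of 0.746, and the estimate was -0.0031 without that library. HLF, the other gene of the family, was at 1.95 ± 0.219 and 1.94 ± 0.208 FPKM (SD, n = 3 each). Of the summed level of DBP, TEF and HLF, TEF made up 69.2%, 70.8% and 71.3% in agomir libraries, while its share in agomir NC libraries was 66.1%, 64.3% and 67.3%. This share was higher in every agomir library than in any agomir NC library, but it reuses the TEF values given above and is not separate evidence.

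Single libraries differed in how many clock genes peaked in them. Agomir replicate 2 had the highest value of the 6 libraries for 5 clock genes (CLOCK, CRY1, NR1D1, NR1D2 and TEF), agomir replicate 1 for 3 (PER1, PER2 and CRY2), agomir replicate 3 for PER3 and agomir NC replicate 2 for DBP. Agomir NC replicates 1 and 3 had the highest value for 0 of the 10. The same shares over all genes were not computed, so nothing particular to the clock genes is read from these counts. The summed level of the 10 genes was 55.5, 55.6 and 52.9 FPKM in agomir replicates and 49.9, 51.3 and 49.4 FPKM in agomir NC replicates. These sums reuse the values of the single genes and are not separate evidence. The sum over all genes, from 365977 to 379361 FPKM, was highest in agomir NC replicate 3, and the share of the 10 most abundant genes ran from 11.1% to 11.7%.

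**Figure D2:**
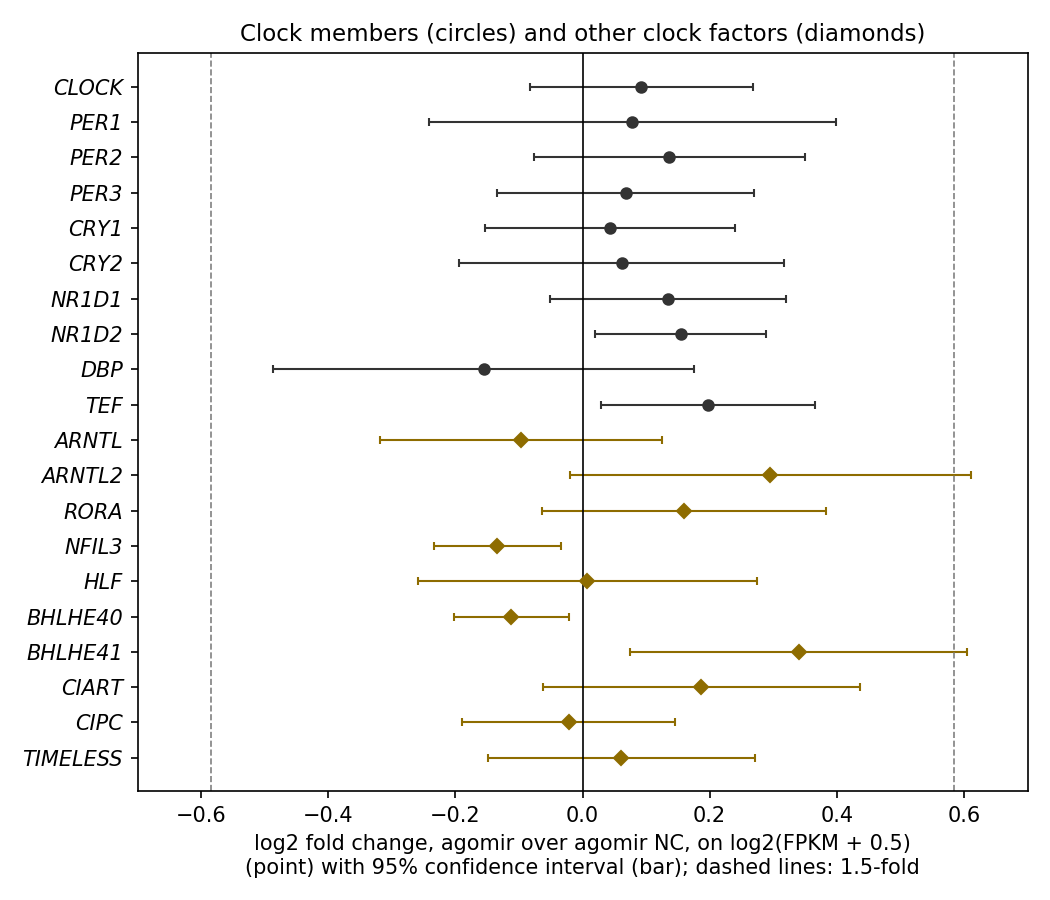
Log2 fold change of agomir over agomir NC on log2(FPKM + 0.5) for the 10 clock genes (circles) and 10 other clock factors (diamonds), with bars for the 95% confidence interval and dashed lines at a 1.5-fold difference. The bars of NR1D2 and TEF lie above 0, as does that of BHLHE41, while those of NFIL3 and BHLHE40 lie below 0, before adjustment for the number of genes tested.

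Beyond the 10 genes, 13 other clock factors were listed, of which 10 were tested. At an unadjusted p under 0.05 in limma, 1 of the 10 was higher with the agomir and 2 were lower, beside 6.63% and 4.31% of all genes, 0 passed an adjusted p of 0.05, and their median log2 fold change was 0.034. BHLHE40, a repressor that competes for E-box elements, was with NFIL3 the most abundant of the list, with 86.5, 85.4 and 86.8 FPKM under the agomir, compared with 90.7, 96.3 and 92.7 FPKM under agomir NC. NFIL3, the repressor of D-box elements, was at 80.5, 87.9 and 85.2 FPKM in agomir libraries, while agomir NC libraries held 91.9, 92.0 and 94.4 FPKM. In both genes every agomir library was below every agomir NC library, beside 6.36% of all genes. The log2 fold changes were -0.11 (standard error 0.040) for BHLHE40 and -0.13 (standard error 0.045) for NFIL3, with adjusted p-values from limma of 0.381 and 0.354. Their unadjusted p was under 0.05 in 13 and 14 of the 16 alternatives.

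BHLHE41, the paralog of BHLHE40, lay in the opposite direction at a far lower level. It was at 2.61, 2.19 and 2.54 FPKM in agomir replicates and 2.04, 1.87 and 1.58 FPKM in agomir NC replicates. Each agomir value was above each agomir NC value, beside 10.9% of all genes. Limma gave it a log2 fold change of 0.34 with a standard error of 0.12 and an adjusted p of 0.366. Its unadjusted p was 0.0172, and it was above 0.05 without agomir replicate 1 (0.0591), agomir replicate 3 (0.0522) or agomir NC replicate 3 (0.0640). ARNTL2, the paralog of ARNTL, was at 1.34 ± 0.221 FPKM against 0.994 ± 0.131 FPKM with agomir NC (SD, n = 3 each), and RORA, the activator that opposes the REV-ERB receptors, was at 3.03 ± 0.255 FPKM against 2.65 ± 0.175 FPKM (SD, n = 3 each). Both overlapped between the groups. NPAS2, a substitute for CLOCK, and RORB were under the filter at means of 0.264 and 0.0319 FPKM.

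The kinases and ubiquitin ligases that set the stability of PER and CRY proteins ranged from genes at or under the filter to genes well above NR1D2 in level. Of 14 listed, 12 were tested, and at an unadjusted p under 0.05 in limma 0 were higher and 0 were lower, beside 6.63% and 4.31% of all genes, which for 12 genes comes to under 1 gene in each direction. The median log2 fold change was 0.046. Casein kinase 1 alpha (CSNK1A1) had the highest level, at a mean of 75.8 FPKM. CSNK1D, the casein kinase that phosphorylates PER proteins, was at 29.3, 31.2 and 28.4 FPKM under the agomir, compared with 26.8, 27.6 and 27.4 FPKM under agomir NC. FBXW11, a ubiquitin ligase subunit that recognizes phosphorylated PER, was at 18.7 ± 1.13 FPKM against 17.3 ± 0.258 FPKM with agomir NC (SD, n = 3 each). For these 2 genes every agomir library was above every agomir NC library, beside 10.9% of all genes, with adjusted p-values from limma of 0.460 and 0.530.

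Among 13 listed genes under clock control, 12 were tested, and at an unadjusted p under 0.05 in limma 1 was higher and 1 lower, near the shares of all genes (6.63% and 4.31%). At an adjusted p of 0.05, 0 passed, and the median log2 fold change was 0.042. The transcriptional coactivator gene PPARGC1B was at 1.02, 1.06 and 0.974 FPKM in agomir libraries, while agomir NC libraries held 0.723, 0.772 and 0.722 FPKM. Its groups did not overlap, beside 10.9% of all genes in the higher direction. The log2 fold change was 0.29 (standard error 0.13), with an adjusted p of 0.439 from limma. KLF9, a transcription factor gene driven by glucocorticoid and by the clock, was at 15.9 ± 1.66 FPKM against 18.2 ± 1.42 FPKM with agomir NC (SD, n = 3 each) and overlapped between the groups. ELOVL3, the gene of a fatty acid elongase, was listed at 0. The unadjusted p was 0.0423 for PPARGC1B and 0.0431 for KLF9, and it was under 0.05 in 7 of the 15 alternatives in which PPARGC1B was tested and in 9 of 16 for KLF9.

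Glucocorticoid and cAMP signals reset the clock of cultured cells, and 13 of 14 listed genes of these inputs were tested. At an unadjusted p under 0.05 in limma 1 was higher and 1 was lower, again near the shares of all genes (6.63% and 4.31%), 0 passed an adjusted p of 0.05, and the median log2 fold change was 0.054. The glucocorticoid receptor gene NR3C1 was at 37.7, 36.8 and 36.9 FPKM in agomir replicates and 35.0, 35.1 and 33.7 FPKM in agomir NC replicates. DUSP1, a phosphatase gene induced by glucocorticoid and by stress, was at 48.3, 48.8 and 47.0 FPKM under the agomir, compared with 54.2, 51.5 and 53.8 FPKM under agomir NC. Neither gene overlapped between the groups, NR3C1 being higher with the agomir and DUSP1 lower, beside 10.9% and 6.36% of all genes in those directions. The log2 fold changes were 0.10 (standard error 0.044) and -0.14 (standard error 0.044), with adjusted p-values from limma of 0.447 and 0.321. The unadjusted p of NR3C1 was 0.0468 and was under 0.05 in 5 of the 16 alternatives, while that of DUSP1 was 0.00835 and was under 0.05 in 16 of 16. With the trend on span removed, the log2 fold change of NR3C1 was 0.056, its unadjusted p was 0.232, and 0 genes of the list were higher at that threshold.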

How the data were processed

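RNA was sequenced by the authors on an Illumina platform, and the submitters' notes name fastp, HISAT2 and StringTie with the ARS-UCD1.2 build. Expression was deposited as FPKM, computed by the authors, for every gene in each library. Depth is unknown, and reads could not be reconstructed from ratios of low values (2158 genes, with a maximum of 7 in any interval of 0.002 on the log2 scale). Values were transformed as log2(FPKM + 0.5) for genes whose mean reached 0.5 FPKM and compared with limma 3.58.1 in R 4.3.3 (variance trend, two-sided, Benjamini-Hochberg over 12422 genes), after tests on simulated data. The exact two-sided permutation test used 20 labelings, with a smallest p of 0.1. Alternatives were quantile normalization, median-ratio scaling, pseudocounts of 0.1 and 1, a filter at 1 FPKM or none, array weights, no variance trend, a replicate block, each library left out and, chosen after the data were seen, a correction for gene span. Members and lists were chosen with earlier results of these data known. All members were named. Genes of other lists were named at an unadjusted p under 0.05, at the highest or lowest level, or without overlap. ARNTL, ARNTL2, RORA, NPAS2, RORB, HLF and THRA were named after their values were seen. Spans and overlaps were read from RefSeq genes of ARS-UCD2.0 (11471 genes matched). Sequences were not examined, because no sequence table was available.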

Additional observations from a re-analysis of the deposited data

How the results depend on the processing

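The depth of the libraries is unknown, so counting error cannot be given for clock genes of low level such as DBP. Over the 16 alternatives, 152 of 160 log2 fold changes of the 10 clock genes kept their direction and their side of an unadjusted p of 0.05, 6 no longer passed it (3 each of NR1D2 and TEF), and 2 reversed, PER1 (-0.053, within a range of -0.053 to 0.24 with a library left out) and CRY2 (-0.073, range -0.073 to 0.14), both without agomir replicate 1. The median over the clock genes ranged from 0.060 to 0.135. Genes past an adjusted p of 0.05 in limma numbered 0 with no filter (1604 at an unadjusted p under 0.05), 0 with no variance trend (1249) and 0 with the replicate block (1260), and from 0 to 2 with a library left out. Clock genes higher at an unadjusted p under 0.05 numbered 1 after quantile normalization, 2 with the replicate block, and from 0 to 2 with a library left out: 0 without agomir replicate 2 and 1 without agomir replicate 3, agomir NC replicate 1 or agomir NC replicate 3. Clock genes without overlap numbered from 3 to 6 with a library left out, 5 without agomir replicate 1 and 6 without agomir replicate 3 (5 higher and DBP lower), when the share over all genes was 28.0% and 27.0% in place of 17.2%, since fewer samples overlap less often. For the other shifts the cause was not tested. No strong pairing of the libraries by replicate number was seen. For numbers 1, 2 and 3, the departures of the agomir and agomir NC library from the mean of their group had correlations of -0.051, 0.053 and 0.039. Libraries of unlike numbers had correlations from -0.109 (agomir replicate 2 with agomir NC replicate 3) to 0.072 (agomir replicate 1 with agomir NC replicate 3). These values are over 12422 genes, which are not independent replicates, and could not show a weak pairing.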

Other observations

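Ratios of clock genes that act in opposition or are paralogs were computed in each library, and all 5 that were computed are given. The log2 ratio of NR1D1 to ARNTL, a repressor to its target gene, was 0.14, 0.10 and 0.28 with the agomir and -0.16, -0.16 and 0.081 with agomir NC. That of NR1D2 to ARNTL was 1.40, 1.22 and 1.49 with the agomir and 1.09, 1.09 and 1.13 with agomir NC. TEF to NFIL3, an activator to a repressor of D-box elements, had log2 ratios of -3.31, -3.33 and -3.29 with the agomir and -3.75, -3.61 and -3.59 with agomir NC. BHLHE41 to BHLHE40 had a mean log2 ratio of -5.14 ± 0.13 with the agomir and -5.68 ± 0.20 with agomir NC (SD over 3 libraries each). CRY2 to CRY1 had a mean log2 ratio of 0.58 with the agomir and 0.56 with agomir NC. Its SD was 0.25 in the agomir libraries and 0.012 in the agomir NC libraries. The ratios share genes with each other and with the comparisons of single genes, and were picked after the values were seen, so they are not separate evidence and no test is given.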
